A study of Arabidopsis thaliana with 18 samples.

Results

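Splicing of 3 genes linked to the plant cell wall and to growth was followed in the first leaf of Arabidopsis thaliana: EXPA1 (AT1G69530), AtkdsA1 (AT1G79500) and AT5G14920. Every event whose identifier holds 1 of these 3 loci was taken, which gave 13 events of the 6553 in any deposited list, 4 in EXPA1, 6 in AtkdsA1 and 3 in AT5G14920. Of these, 11 stood in the lists of all 9 groups, which share 5403 events in 2591 genes. The 3 loci were chosen by earlier results on these same libraries, without a record of which values decided, so all PSI comparisons are counted as used by the choice, and the PSI values of the members are a description with no test.

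Expansins loosen the wall by weakening the contacts between its polysaccharides, which lets a cell enlarge, and EXPA1 is known for its role in guard cell walls and in growing organs. AtkdsA1 encodes a KDO-8-phosphate synthase, an enzyme on the way to KDO, a sugar found in the pectin rhamnogalacturonan II. AT5G14920, also called GASA14 in the RefSeq annotation, belongs to the gibberellin-regulated GASA family of small cysteine-rich proteins, whose members are known for effects on growth. A pre-mRNA can be spliced at more than 1 donor (the start of the removed stretch) or acceptor (its end), or can keep the stretch, and each choice changes the transcript without changing its promoter.

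The groups were the F1 hybrids Col-0 x Bur-0, Col-0 x C24, Col-0 x Kro-0 and Col-0 x Ler-1, the natural inbred accessions Bur-0, C24, Kro-0 and Ler-1, and the accession Col-0, which is the reference strain and the common parent of the hybrids. Each group had 2 biological replicates, 18 libraries in all, made from polyA RNA of the first leaf at an age of 14 days. Plants grew on plates with 1% sucrose, under 16 h of light (100 µmol/m²/s) at 22 °C and 8 h of dark at 18 °C. No group carried a mutation or a transgene named in the labels, and the number of plants pooled in a library and the direction of the crosses were not given in the sources used here. Of 6 leaf mesophyll markers, 5 had an event common to all lists. They took 21.87% to 33.11% of a library's reads in such common events. Guard cell markers with a common event (2 of 3) took 0.0037% to 0.0075% of these reads. The single epidermis marker with a common event took 0.0016% to 0.0028%, and no phloem, trichome or root marker had one.

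For each event the files give the reads of a first form, in which the stretch is removed (or the longer of 2 introns is), and of a second form, in which it is kept (or the shorter intron is removed). PSI is the share of the second form, here in percent. The reads in listed events numbered 3186952 to 6134488 per library, and the median event common to all lists had 63 to 123 reads. Where events of one gene overlap, the same reads enter several of them. Because the rule for counting reads of a kept stretch is not given, PSI is compared between groups and is not read as a share of molecules. No molecular identifiers are named in the sources used here, so every limit quoted for a count of 0 (3 reads of the total) covers counting error only.

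**Figure D1:**
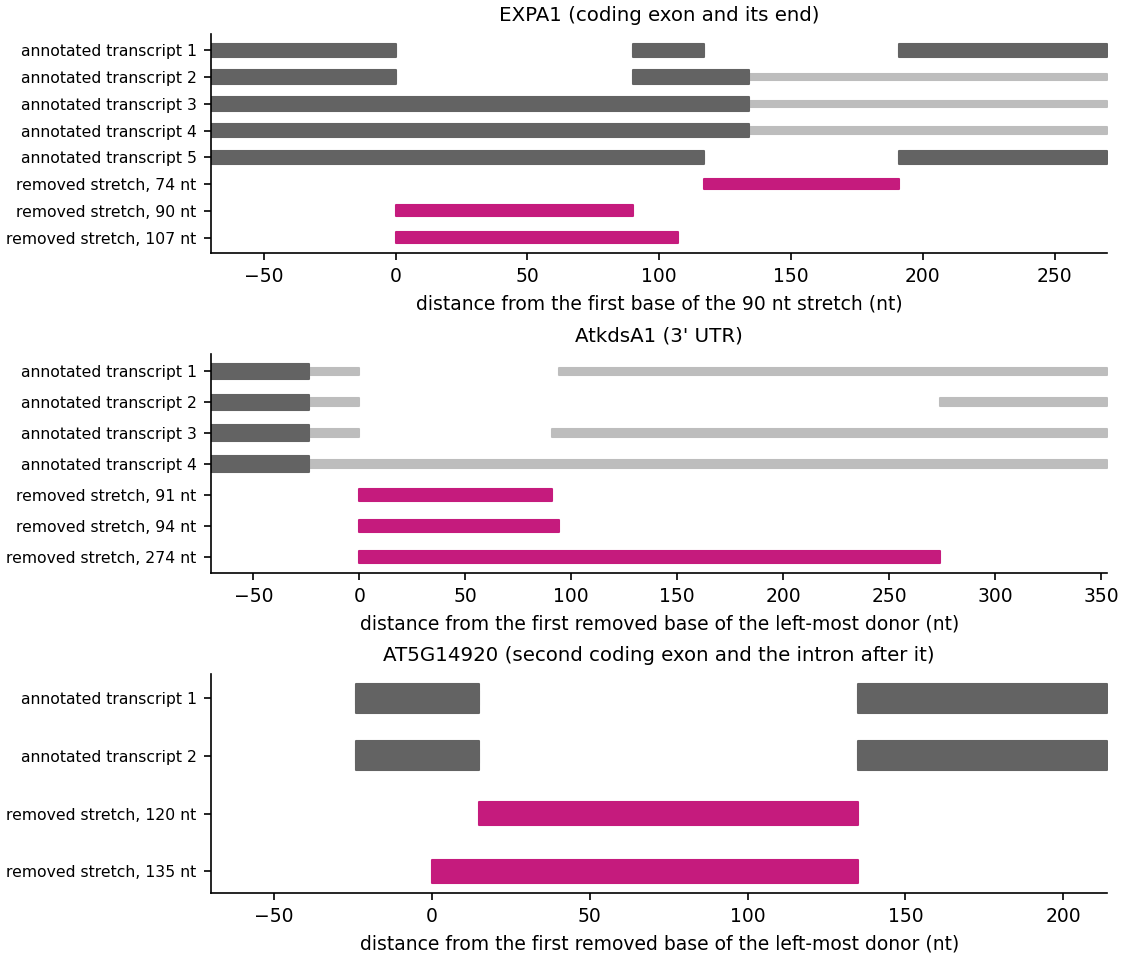
Map of the removed stretches (magenta) in the 3 genes below the annotated transcripts, with coding sequence in dark and other exon sequence in light bars; the horizontal axis is the distance in nt from the first removed base named under each panel. In EXPA1 the 90 nt stretch lies inside coding sequence in 3 of 5 transcripts, in AtkdsA1 all 3 stretches start at one donor after the stop codon, and in AT5G14920 the 135 nt stretch starts 15 nt inside the second coding exon.

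In EXPA1, removal of a 90 nt stretch from the coding sequence was seen chiefly in Col-0 and, at a lower share, in all 4 hybrids. The stretch lies at chr1:26142918-26143007 on the plus strand (TAIR10), is an intron in 2 of 5 annotated transcripts and lies inside a coding exon in the other 3. Its length is a multiple of 3, so its removal keeps the reading frame. From the same donor a second acceptor ends a 107 nt stretch at position 26143024, which no annotated transcript has as an intron and which would shift the frame. Both stretches are shown together because they share a donor inside coding sequence. The capitals mark the GT of the donor, the AG of the 90 nt stretch and the AG of the 107 nt stretch (RefSeq TAIR10.1 sequence of Col-0, chr1:26142918-26143024, plus strand).
EXPA1 90 and 107 nt stretches: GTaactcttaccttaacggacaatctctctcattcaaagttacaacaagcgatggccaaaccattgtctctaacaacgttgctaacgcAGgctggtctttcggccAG

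Reads with the 90 nt stretch removed numbered 0 of 1793 and 0 of 3925 in Bur-0, 1 of 959 and 1 of 922 in C24, 3 of 2582 and 9 of 4112 in Kro-0, and 1 of 1677 and 2 of 2482 in Ler-1, against 109 of 2395 and 207 of 3700 in Col-0. All 8 libraries of the other accessions lay below both Col-0 libraries. Over both Bur-0 libraries, 0 of 5718 reads allows a removed share of up to 0.0525%. In the hybrids, removed reads numbered 19 of 776 and 93 of 3664 in Col-0 x Bur-0, 30 of 1196 and 63 of 1771 in Col-0 x C24, 53 of 2174 and 115 of 3874 in Col-0 x Kro-0, and 38 of 1511 and 53 of 2424 in Col-0 x Ler-1. Each hybrid library stood above both libraries of its parent other than Col-0 and below both Col-0 libraries.

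As PSI, the 90 nt stretch was kept at 97.4% ± 0.0065 in Col-0 x Bur-0, 96.9% ± 0.72 in Col-0 x C24, 97.3% ± 0.36 in Col-0 x Kro-0 and 97.6% ± 0.25 in Col-0 x Ler-1 (SD, n = 2 each). It was kept at 99.96% ± 0.021 in Bur-0, 99.79% ± 0.0059 in C24 leaves, 99.80% ± 0.062 in Kro-0 leaves and 99.88% ± 0.0012 in Ler-1, against 94.9% ± 0.73 in Col-0 (SD, n = 2 each). In the order of the 9 means, Col-0 was lowest, the 4 hybrids followed with ranges that overlapped from neighbour to neighbour, and the 4 other accessions were highest. Each hybrid mean differed from the mean of its parents by -0.44 to 0.21 points. The removed share was 2.49% in Col-0 x Bur-0, 3.03% in Col-0 x C24, 2.70% in Col-0 x Kro-0 and 2.35% in Col-0 x Ler-1, beside mid-parent shares of 2.54%, 2.59%, 2.62% and 2.57% in the same order.

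**Figure D2:**
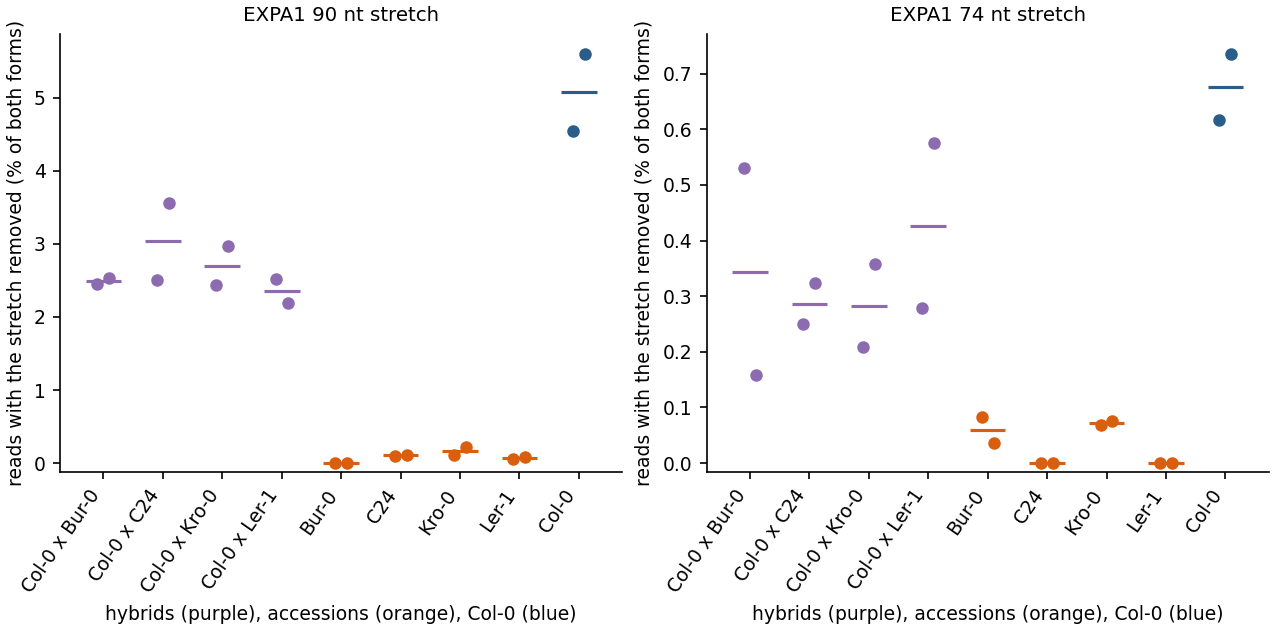
Reads with the EXPA1 90 nt stretch (left) or 74 nt stretch (right) removed, in percent of the reads of both forms, per library (points) with the mean of 2 libraries (line), for hybrids, accessions and Col-0. For the 90 nt stretch the hybrids averaged 2.35% to 3.03%, the accessions other than Col-0 0% to 0.17%, and Col-0 5.07%.

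A further stretch of EXPA1, 74 nt at chr1:26143035-26143108, was also removed most often in Col-0, at a far lower share. It is an intron in 2 of 5 annotated transcripts and covers the stop codon used by the others, whose coding sequence ends at position 26143051; with it removed, the annotated coding sequence runs on to position 26143200. The last base of the 107 nt stretch and the donor of the 74 nt stretch lie close together, and the GT of that donor is in capitals (chr1:26143025-26143044, plus strand, RefSeq TAIR10.1).
EXPA1 donor of the 74 nt stretch: accttcacagGTgcgcagct

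The 74 nt stretch was removed in 1 of 1205 and 1 of 2702 reads in Bur-0, in 0 of 672 and 0 of 597 in C24, in 1 of 1468 and 2 of 2623 in Kro-0, and in 0 of 1181 and 0 of 1804 in Ler-1, against 11 of 1785 and 20 of 2721 in Col-0. Hybrid libraries had between 2 and 10 such reads. The PSI of this stretch ranged over only 0.65 points among the 9 group means, but no library of another accession reached the removed share of a Col-0 library. The counts of 0 allow a share of up to 0.24% in C24 and 0.10% in Ler-1 over both libraries.

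The 107 nt removal was rare in every group. It was read in 0 of 6096 reads in Bur-0, 0 of 1991 in C24, 0 of 7235 in Kro-0 and 0 of 4489 in Ler-1, against 11 of 6830 in Col-0, and each hybrid had 2 to 6 such reads over its libraries. These counts are too low to order the groups. The event that sets the 107 nt acceptor against the 90 nt acceptor counts removed reads only. It had 0 reads in both Bur-0 libraries and 2, 12 and 3 reads over the libraries of C24, Kro-0 and Ler-1, so its listed PSI of 0 in Bur-0 is no measurement. Where reads were enough, the 90 nt acceptor took most of them: 112 of 114 in Col-0 x Bur-0, 93 of 95 in Col-0 x C24, 168 of 171 in Col-0 x Kro-0 and 91 of 97 in Col-0 x Ler-1, against 316 of 327 in Col-0.

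In AtkdsA1, every read counted in Bur-0 for a retention event of a long 3′ UTR stretch was of the spliced form. In Col-0 most reads of that event were of the kept form. The 3 stretches start at one donor at chr1:29906014 on the plus strand, downstream of the end of the coding sequence at position 29905989. A near acceptor ends a 91 nt stretch at position 29906104, a middle acceptor a 94 nt stretch at 29906107 and a far acceptor a 274 nt stretch at 29906287. Splicing at the near or middle acceptor removes part of the 274 nt stretch, and how such reads enter its retention event is not given. Each of these introns is annotated in 1 of 4 transcripts, and the fourth transcript keeps the whole sequence, so the coding sequence is the same in all. The acceptors are shown because the groups differ in which is used; the capitals mark their AG ends (RefSeq TAIR10.1, chr1:29906089-29906113 and chr1:29906272-29906293, plus strand).
AtkdsA1 near and middle acceptors: atcttctcactttcAGtAGagacta
AtkdsA1 far acceptor: tgtctgaaacttttAGgtctac

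Reads that kept the 274 nt stretch numbered 32 of 60 and 46 of 81 in Col-0 x Bur-0, 0 of 88 and 0 of 79 in Bur-0, and 112 of 146 and 114 of 136 in Col-0. Over both Bur-0 libraries, 0 of 167 reads allows a kept share of up to 1.80%. Bur-0 had lower PSI than every other group, and the hybrid libraries lay between the 2 parents without overlap. PSI was 54.3% ± 2.6 in Col-0 x Bur-0, 0% ± 0 in Bur-0 and 79.7% ± 5.0 in Col-0 (SD, n = 2 each). Col-0 x Bur-0 thus stood 68.1% of the way from Bur-0 to Col-0 and 14.4 points above the mid-parent value of 39.9%.

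The other accessions kept the 274 nt stretch about as Col-0 did. C24 kept it in 84 of 96 and 71 of 82 reads (PSI 86.1% ± 0.75), Kro-0 in 58 of 81 and 71 of 88 (75.3% ± 6.4) and Ler-1 in 116 of 149 and 133 of 175 (76.5% ± 1.2; SD, n = 2 each), against 79.7% ± 5.0 in Col-0. Both C24 libraries lay above both Col-0 libraries, and those of Kro-0 and Ler-1 overlapped with Col-0. Their hybrids had a PSI of 82.5% ± 5.3 (Col-0 x C24), 78.7% ± 9.7 (Col-0 x Kro-0) and 76.3% ± 4.4 (Col-0 x Ler-1; SD, n = 2 each), which overlapped with Col-0 in each case. From the third to the last place in the order of the 9 means, each group's range overlapped with that of its neighbour.

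The acceptors differed between groups even where retention did not. Near, middle and far acceptors had 0, 0 and 167 junction reads in Bur-0, 13, 13 and 23 in C24 leaves, 2, 4 and 40 in Kro-0 leaves and 0, 7 and 75 in Ler-1, against 34, 13 and 56 in Col-0 (both libraries summed). The near acceptor, which took 33.3% ± 12.3 of the junction reads in Col-0, took 24.5% ± 8.2 in C24 and 4.42% ± 0.82 in Kro-0 (SD, n = 2 each). It had no read in Ler-1 or Bur-0, where counts of 0 of 82 and 0 of 167 allow shares of up to 3.66% and 1.80%. Reads of the near acceptor numbered 1 of 26 and 1 of 20 junction reads in the Kro-0 libraries and 0 of 37 and 0 of 45 in those of Ler-1. In the Col-0 libraries they numbered 13 of 53 and 21 of 50, without overlap in share.

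Hybrid leaves used all 3 acceptors. The near acceptor took 10.6% ± 5.3 of the junction reads in Col-0 x Bur-0, 18.8% ± 6.3 in Col-0 x C24, 29.8% ± 8.8 in Col-0 x Kro-0 and 23.5% ± 5.0 in Col-0 x Ler-1 (SD, n = 2 each). The far acceptor took 79.8% ± 0.32, 56.4% ± 9.0, 62.2% ± 20.1 and 68.0% ± 4.8 in the same hybrids, beside 100%, 52.6% ± 22.9, 86.7% ± 2.4 and 91.3% ± 2.9 in Bur-0, C24, Kro-0 and Ler-1, and 54.1% ± 14.2 in Col-0 (SD, n = 2 each). With 46 to 167 junction reads in a group, shares of the middle acceptor, of 0% to 26.5% over the summed libraries, could be ordered only where the groups differed several-fold.

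The 2 shorter stretches, counted as kept or removed, gave the same picture in most groups. PSI of the 91 nt stretch was 97.3% ± 0.10 in Kro-0 and 99.3% ± 0.13 in Ler-1, against 83.7% ± 3.8 in Col-0 (SD, n = 2 each). Bur-0 had 1 read and 0 reads in its libraries for this stretch and for the 94 nt stretch, so these have no value there. PSI of the 94 nt stretch was 90.8% ± 7.0 in C24 leaves, 96.1% ± 0.15 in Kro-0 leaves and 97.0% ± 1.0 in Ler-1, against 92.4% ± 0.39 in Col-0 (SD, n = 2 each). The 3 events that set one acceptor against another are made of the junction reads given above. For near against middle they had 0 reads in Bur-0, 26 in C24 leaves, 6 in Kro-0 leaves and 7 in Ler-1, against 47 in Col-0.

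**Figure D3:**
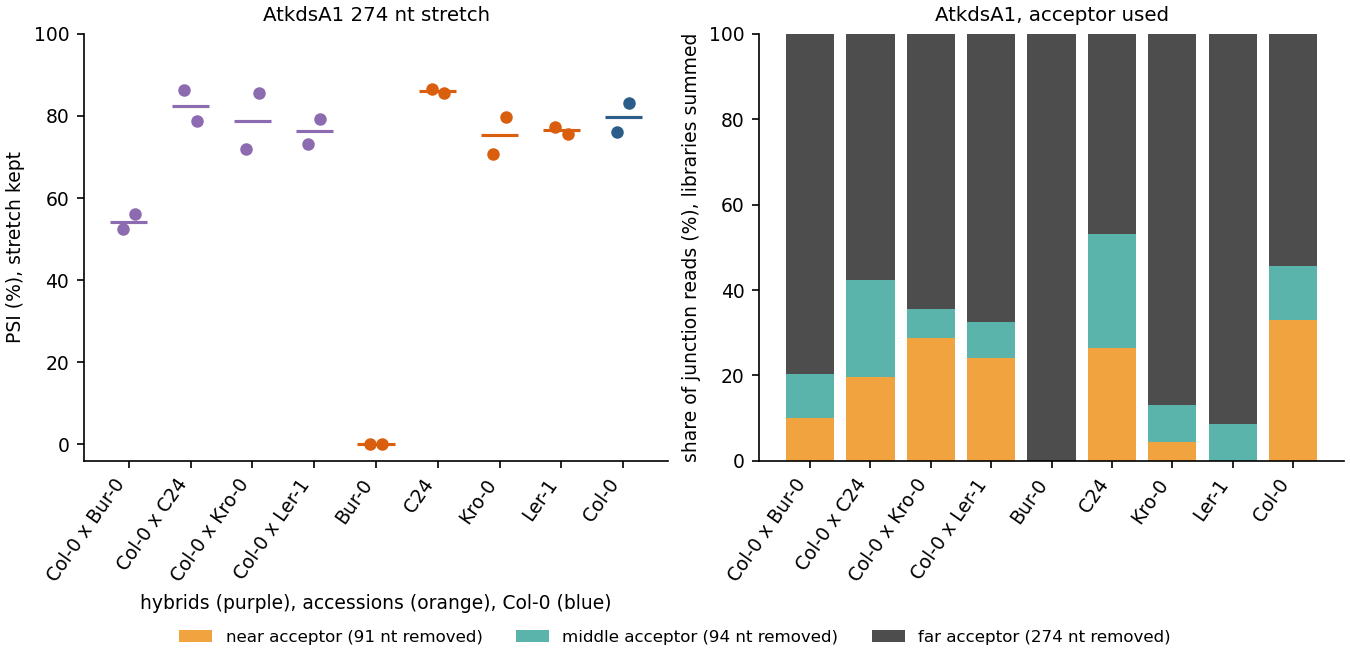
AtkdsA1 in hybrids, accessions and Col-0. Left, PSI of the 274 nt stretch in percent per library (points) with the mean of 2 libraries (line); right, share of junction reads at the near, middle and far acceptor, with both libraries of a group summed. Bur-0 lies at 0% and uses the far acceptor only, and Col-0 x Bur-0 lies at 54.3%, between Bur-0 and Col-0.

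The interval lengths that the event names give in each accession's own assembly differed for AtkdsA1. In Bur-0 the near and middle stretches were each 3 nt longer than in Col-0 and the far stretch was 9 nt longer, at 283 nt, while in C24 only the far stretch differed, also at 283 nt. In Kro-0 and Ler-1 all 3 lengths equalled those of Col-0. Over all 6488 intervals compared, 15.17% differed in length in Bur-0 and 14.4% in C24. The far stretch thus had the same total length in C24 and Bur-0, but the near and middle stretches were longer in Bur-0 only. PSI of the 274 nt stretch was 86.1% in C24 and 0% in Bur-0, and a link of PSI with length was not tested. No interval of EXPA1 or AT5G14920 differed in length from Col-0 in any of the 4 accessions. The bases of the other accessions were not analysed here.

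In AT5G14920, Bur-0 leaves used a donor 15 nt upstream of the annotated donor of the second intron in 54.2% of the reads of both donors, and no read of it was seen in any group without Bur-0 parentage. The annotated intron at chr5:4826816-4826935 (plus strand, 120 nt) is present in both annotated transcripts and lies within the coding region. The upstream donor extends it to chr5:4826801-4826935 (135 nt), which shortens the second coding exon (chr5:4826777-4826815) by 15 nt and keeps the reading frame. Both donors are shown because the Col-0 sequence differs from a usual donor at the upstream one: the capitals mark the first 2 bases of the 135 nt stretch, GA, and of the 120 nt stretch, GT (RefSeq TAIR10.1, chr5:4826789-4826825, plus strand).
AT5G14920 upstream and annotated donors: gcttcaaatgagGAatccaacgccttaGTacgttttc
Of the 6490 intervals of all listed events, 95.61% start with GT and end with AG in this sequence, and 4 (0.0616%) start with GA and end with AG. Among the 2344 intervals of alternative donor events, 33 (1.41%) start with neither GT nor GC. These letters are those of Col-0, in which the upstream donor had no reads.

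Upstream and annotated donors had 46 and 203 reads in replicate 1 and 80 and 250 in replicate 2 of Col-0 x Bur-0. In Bur-0 they had 198 and 168, and 216 and 182. In Col-0 they had 0 and 464, and 0 and 576. The 3 groups did not overlap. PSI, the share of the annotated donor, was 78.4% ± 4.0 in Col-0 x Bur-0, 45.7% ± 0.11 in Bur-0 and 99.8% ± 0.030 in Col-0 (SD, n = 2 each), where the distance from 100% in Col-0 comes only from the 1 added in the denominator. Col-0 x Bur-0 stood 60.4% of the way from Bur-0 to Col-0 and 5.6 points above the mid-parent value of 72.8%.

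No read used the upstream donor in the other 6 groups. Over both libraries the counts were 0 of 778 in Col-0 x C24, 0 of 621 in Col-0 x Kro-0, 0 of 926 in Col-0 x Ler-1, 0 of 378 in C24, 0 of 418 in Kro-0 and 0 of 1118 in Ler-1, against 0 of 1040 in Col-0. These allow shares of up to 0.39%, 0.48%, 0.32%, 0.79%, 0.72%, 0.27% and 0.29%. The smallest share seen in a Bur-0 library was 54.1%.

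Retention of the AT5G14920 intron was listed for Col-0 x Bur-0, Bur-0 and Col-0 only. Reads that kept the 120 nt intron numbered 19 of 188 and 9 of 259 in Col-0 x Bur-0, 36 of 204 and 21 of 203 in Bur-0, and 9 of 473 and 3 of 579 in Col-0. PSI was 6.76% ± 4.7 in Col-0 x Bur-0, 13.9% ± 5.1 in Bur-0 and 1.21% ± 0.98 in Col-0 (SD, n = 2 each), and both Bur-0 libraries lay above both Col-0 libraries. This event sets kept reads against the annotated donor alone, so the same kept reads weigh more where that donor is used less. For the 135 nt stretch, kept reads numbered 19 of 65 and 10 of 90 in Col-0 x Bur-0, 35 of 233 and 20 of 236 in Bur-0, and 8 of 8 and 3 of 3 in Col-0. The annotated-donor junction had 203 reads in the donor event but 169 in the retention event in Col-0 x Bur-0 replicate 1, the only unequal pair among 156 junction counts given in 2 events. With 169, an alternative chosen after seeing the data, the PSI of the donor event in that library is 78.2% in place of 81.2%, and the hybrid stands 4.13 points above the mid-parent value.

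**Figure D4:**
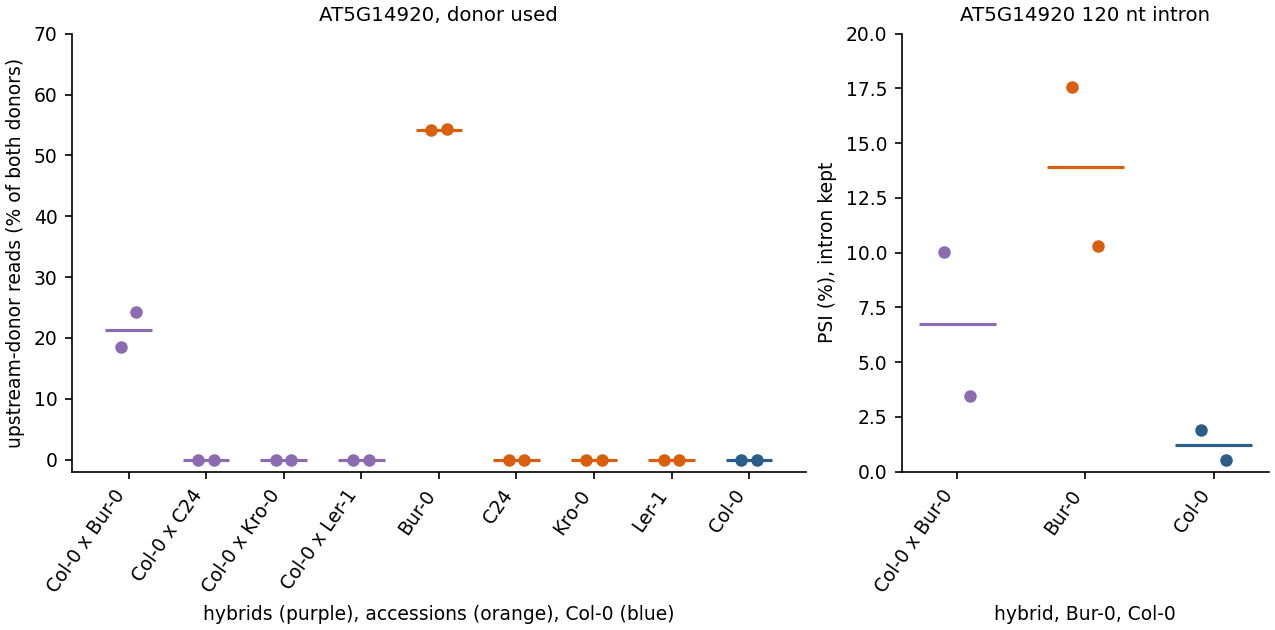
AT5G14920. Left, reads of the upstream donor in percent of the reads of both donors, per library (points) with the mean of 2 libraries (line), in hybrids, accessions and Col-0; right, PSI of the 120 nt intron in percent in the 3 groups that list it. Bur-0 lies at 54.2%, Col-0 x Bur-0 at 21.4% and every other group at 0%.

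The members were chosen with these comparisons known, so their calls are counted beside the whole table and nothing is read from them. Called means an adjusted p under 0.05 (edgeR quasi-likelihood test, Benjamini-Hochberg) where each compared library had 10 or more reads. In Bur-0 against Col-0, 6 of 7 tested member events were called, where 8.92% of 5137 events were. In C24 against Col-0 it was 2 of 9 (5.98% of 5033 events), in Kro-0 against Col-0 4 of 9 (5.25% of 5063) and in Ler-1 against Col-0 4 of 9 (6.99% of 5136). These 4 comparisons share the Col-0 libraries. DESeq2 called 6, 1, 1 and 4 of these member events in Bur-0, C24, Kro-0 and Ler-1, and limma on PSI called 3, 1, 1 and 1. The EXPA1 90 nt stretch was called in all 4 comparisons under every alternative run. The EXPA1 74 nt stretch was called in all 4 by edgeR, but not by DESeq2 in C24 and Kro-0 nor by limma in any. Its call was lost in C24 when any 1 of the C24 and Col-0 libraries was left out. In Kro-0 its call was lost without Kro-0 replicate 1, Kro-0 replicate 2 or Col-0 replicate 2. The call was also lost in Bur-0 without Bur-0 replicate 2 and in Ler-1 without Ler-1 replicate 2. The AtkdsA1 91 nt stretch and the event of its far against its near acceptor were called in Kro-0 and Ler-1 by edgeR. DESeq2 called neither in Kro-0 and both in Ler-1, and limma called neither in either accession. In Bur-0, limma called the 274 nt stretch but not the AtkdsA1 acceptor events. The AT5G14920 donor event was called in Bur-0 and in no other accession. With 1 library left out the Kro-0 count was 1 to 4, the lowest without Kro-0 replicate 1, Kro-0 replicate 2 or Col-0 replicate 2. The C24 count was 1 when any 1 of the 4 C24 and Col-0 libraries was left out, and the Bur-0 count was 5 or 6. Events of the 11 that lacked 10 reads were the 2 acceptor events with few junction reads in all 4 comparisons and, in Bur-0, the 91 nt and 94 nt stretches of AtkdsA1.

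Against the mid-parent value on the log-odds scale, 3 of 7 tested member events were called in Col-0 x Bur-0 (0.098% of 5101 events). None of 9 was called in Col-0 x C24 (0.0597% of 5023), Col-0 x Kro-0 (0.0795% of 5030) or Col-0 x Ler-1 (0.137% of 5118), where 1, 1 and 5 had an unadjusted p under 0.05 and DESeq2 and limma also called 0. The 3 events called in Col-0 x Bur-0 were the EXPA1 90 nt stretch, the AtkdsA1 274 nt stretch and the AT5G14920 donor event. In each, 1 parent had 0 reads of a form. On the log-odds scale the effects were -4.03, 3.94 and -3.89 (log2), and on the PSI scale the hybrid minus mid-parent differences were 0.0037, 14.4 and 5.6 points. For the EXPA1 90 nt stretch and the AT5G14920 donor event the called direction was therefore opposite to that of the PSI difference. DESeq2 also called these 3, and limma on PSI called 0 of 7. With 1 library of the cross left out, 0 or 1 of 7 was called.

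The reads of both forms added give the level of the counted stretch, a measure that the splicing share does not fix. For each gene the event with the most reads was used, a choice made after the values were seen: the 107 nt stretch of EXPA1, the 274 nt stretch of AtkdsA1 and the donor event of AT5G14920. Levels are in CPM (reads scaled to a common total of event reads, after TMM scaling) and are not compared between genes. In bulk leaf RNA, fewer cells that express a gene and less RNA per cell cannot be told apart. Reads shared with near-identical family members could not be checked, since the counting of such reads is not given.

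EXPA1 levels lay far apart between the libraries of several groups, and replicate 2 was higher than replicate 1 in every group. They were 200 and 739 in Col-0 x Bur-0, 294 and 378 in Col-0 x C24, 554 and 925 in Col-0 x Kro-0, and 347 and 431 in Col-0 x Ler-1. They were 378 and 859 in Bur-0, 294 and 302 in C24 leaves, 787 and 1092 in Kro-0 leaves, and 377 and 498 in Ler-1, against 460 and 679 in Col-0. C24 lay below both Col-0 libraries and Kro-0 above both, while Bur-0 and Ler-1 overlapped with Col-0.

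EXPA1 reads were lower in C24 than in Col-0, with a log2 difference of -0.93 ± 0.30 (SE, edgeR adjusted p = 0.0497). This call was lost with DESeq2 (adjusted p = 0.181) and without C24 replicate 1 (0.176), C24 replicate 2 (0.179) or Col-0 replicate 2 (0.257), all adjusted p from fits over the whole table. In C24, reads of the EXPA1 74 nt stretch also passed (-0.98, edgeR adjusted p = 0.0487), but those of the 90 nt stretch did not (-0.85, edgeR adjusted p = 0.0666). For the 107 nt stretch, Kro-0 had a log2 difference from Col-0 of 0.72 ± 0.30 (SE, edgeR adjusted p = 0.127), Bur-0 of 0.13 ± 0.30 (adjusted p = 0.823) and Ler-1 of -0.38 ± 0.30 (adjusted p = 0.441). With a replicate block, run as an alternative, the Kro-0 difference passed (edgeR adjusted p = 0.0278). The labels tie the replicate numbers to no shared batch.

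AtkdsA1 levels were 14.1 and 15.1 in Col-0 x Bur-0, 24.3 and 25.5 in Col-0 x C24, 22.4 and 19.8 in Col-0 x Kro-0, and 20.5 and 23.96 in Col-0 x Ler-1. They were 17.6 and 16.1 in Bur-0, 27.7 and 25.5 in C24 leaves, 23.1 and 21.5 in Kro-0 leaves, and 30.7 and 32.8 in Ler-1, against 25.1 and 22.2 in Col-0. Bur-0 and its hybrid lay below all other libraries and Ler-1 above all others. For this event no difference from Col-0 passed the test: the log2 difference was -0.47 ± 0.16 in Bur-0 (SE, edgeR adjusted p = 0.0545), 0.18 ± 0.15 in C24 leaves (0.475), -0.089 ± 0.16 in Kro-0 leaves (0.759) and 0.43 ± 0.15 in Ler-1 (0.0632). In Bur-0 this level holds junction reads only, and in the other groups mostly reads of the kept stretch, so it compares unlike reads there. Bur-0 reads of the 91 nt and 94 nt stretches were below Col-0 (log2 difference -7.14 and -6.99, edgeR adjusted p = 2.4e-07 for each). Bur-0 reads of the events setting the far acceptor against the near or middle one were above Col-0 (1.17 and 1.56, edgeR adjusted p = 0.0028 and 0.0008). These events are made of the same kept and junction reads as their PSI. Reads of the 2 shorter stretches, which share most of their kept reads with each other, were higher in Ler-1 than in Col-0 by edgeR, with a log2 difference of 0.90 ± 0.17 for the 94 nt stretch (SE, edgeR adjusted p = 0.00314) and 0.72 ± 0.17 for the 91 nt stretch (SE, edgeR adjusted p = 0.0122). The call for the 91 nt stretch was lost with DESeq2 (adjusted p = 0.0862) and without Ler-1 replicate 2 (0.119) or Col-0 replicate 1 (0.0779), while that for the 94 nt stretch passed under every alternative run. These totals include the junction reads of the near and middle acceptors, from which the members' PSI is also made.

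AT5G14920 levels were 58.5 and 61.6 in Col-0 x Bur-0, 86.9 and 76.3 in Col-0 x C24, 55.9 and 85.6 in Col-0 x Kro-0, and 76.0 and 88.7 in Col-0 x Ler-1. They were 73.3 and 81.2 in Bur-0, 57.2 and 55.9 in C24 leaves, 61.0 and 49.8 in Kro-0 leaves, and 105.1 and 113.7 in Ler-1, against 79.8 and 94.2 in Col-0. C24 and Kro-0 lay below both Col-0 libraries and Ler-1 above both, while Bur-0 overlapped with Col-0.

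The AT5G14920 level fell by 0.61 on the log2 scale in C24 relative to Col-0 (SE 0.16, edgeR adjusted p = 0.0158) and by 0.66 in Kro-0 (SE 0.16, edgeR adjusted p = 0.0117). The C24 call was lost without C24 replicate 1 (adjusted p = 0.0668), C24 replicate 2 (0.0848) or Col-0 replicate 2 (0.0912), and the Kro-0 call without Kro-0 replicate 2 (0.110) or Col-0 replicate 2 (0.0663). The log2 difference from Col-0 was -0.16 ± 0.15 in Bur-0 (SE, edgeR adjusted p = 0.543) and 0.34 ± 0.15 in Ler-1 (adjusted p = 0.158). Of the 3 levels, 0 passed in Bur-0 (15.7% of 5329 events did), 2 in C24 leaves (16.7%), 1 in Kro-0 leaves (14.9%) and 0 in Ler-1 (14.2%). The zeros were also 0 with DESeq2, with 1 unadjusted p under 0.05 in Bur-0 and 2 in Ler-1.

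**Figure D5:**
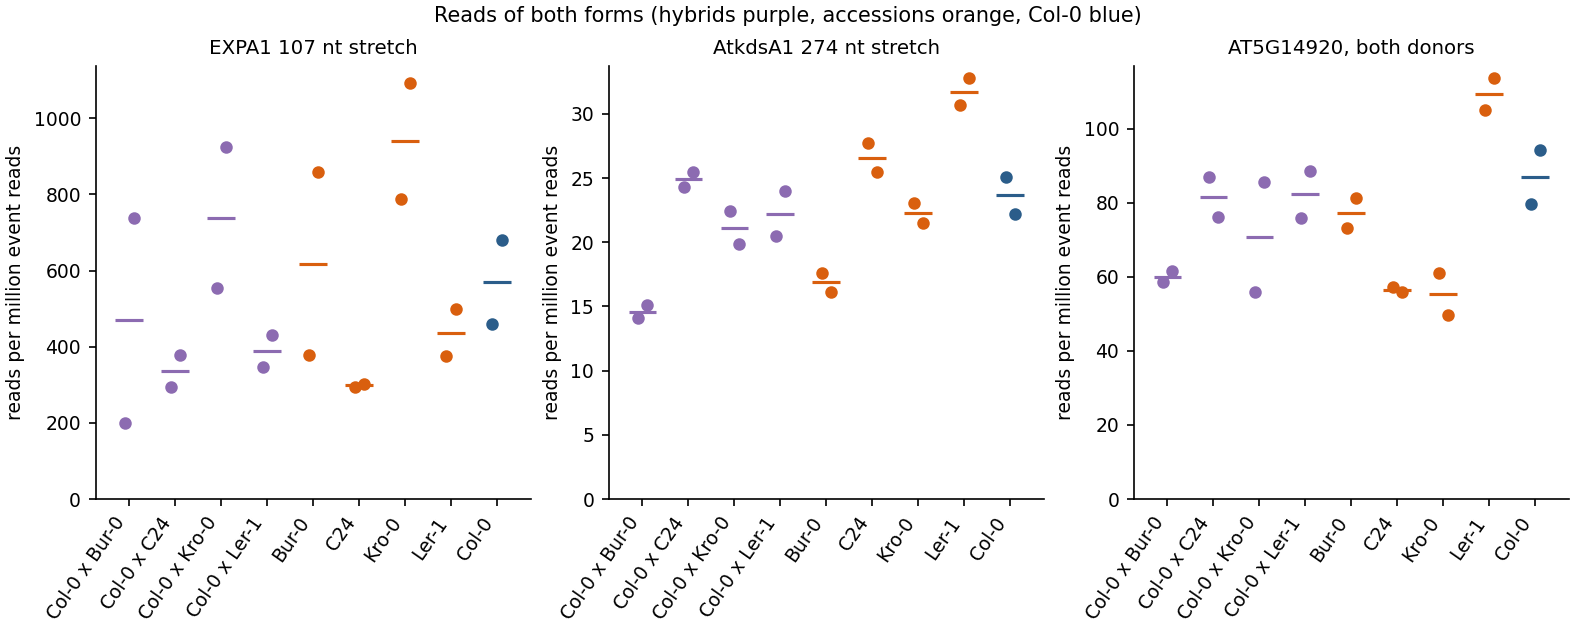
Reads of both forms, in CPM of event reads, for the EXPA1 107 nt stretch, the AtkdsA1 274 nt stretch and the AT5G14920 donor event, per library (points) with the mean of 2 libraries (line), in hybrids, accessions and Col-0. EXPA1 libraries of one group lie far apart (200 and 739 in Col-0 x Bur-0), and AT5G14920 is lower in C24 and Kro-0 than in Col-0.

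Other genes of the same pathways were taken from 3 lists made by words in the gene descriptions. Of genes that loosen walls or modify pectin, 9 had a common event, of genes for wall polymers and nucleotide sugars 12, and of genes for gibberellin-regulated peptides, wall glycoproteins and growth 9 (EXPA1, AtkdsA1 and AT5G14920 are among these, and their events are left out of the counts that follow). RRA3, an arabinosyltransferase of extensins, stands in both of the last lists. In the loosening list, 1 of 15 events was called higher in PSI and 0 lower in Bur-0, 0 of 15 in C24, 3 of 14 higher and 1 lower in Kro-0, and 3 of 14 higher and 2 lower in Ler-1, each against Col-0. The 4 calls in Kro-0 came from 1 gene, AT4G19410, and the 5 in Ler-1 from 2. DESeq2 called 0 of these events in Bur-0, 0 in Kro-0 and 4 in Ler-1, and limma 2 in Bur-0, 0 in Kro-0 and 1 in Ler-1. Over all events, 4.56% were called higher and 4.36% lower in Bur-0, 2.56% and 3.42% in C24, 1.94% and 3.32% for Kro-0, and 2.8% and 4.19% for Ler-1. In the polymer list, 0 of 14 events were higher and 1 lower in Bur-0 and in Kro-0, and 0 were called in C24 and Ler-1. DESeq2 and limma each called 1 in Bur-0 and 1 in Kro-0. In the growth list, 0 of 10 were higher and 1 lower in Bur-0, Kro-0 and Ler-1, and 0 were called in C24; of these, DESeq2 called 1 in Ler-1 and 0 elsewhere, and limma 0. The zeros of C24 were also 0 with DESeq2 and with limma, with 1, 2 and 2 unadjusted p under 0.05 in the 3 lists, and that of Ler-1 likewise, with 0. No event of any list was called against the mid-parent in a hybrid by edgeR, DESeq2 or limma, with 0 to 3 unadjusted p under 0.05 per list and hybrid.

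The largest splicing difference in these lists was in AUD1, which makes UDP-xylose from UDP-glucuronate. One of its retention events had a PSI of 78.8% in Kro-0 and 98.9% in Col-0 (edgeR adjusted p = 9.37e-05), and another 93.4% in Bur-0 and 99.7% in Col-0 (edgeR adjusted p = 0.000316); both calls were kept under every alternative run. An acceptor event of the pectin lyase-like gene AT3G09540 had a PSI of 74.6% in Ler-1 and 89.8% in Col-0 (edgeR adjusted p = 0.0369). This call was lost with DESeq2 (adjusted p = 0.185) and when any 1 of the Ler-1 and Col-0 libraries was left out (0.122 to 0.249). Retention in EXGT-A3, a xyloglucan endotransglucosylase, had a PSI of 20.7% in Bur-0 and 10.7% in Col-0 (edgeR adjusted p = 0.0358), a call lost with DESeq2 (adjusted p = 0.0873) and when any 1 of the Bur-0 and Col-0 libraries was left out (0.116 to 0.249). The other called events, in the pectin acetylesterase AT4G19410 and in AT5G13140, differed by at most 1.16 points.

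Event reads of the lists moved in both directions. In the loosening list 4 of 15 events rose and 5 fell in Bur-0, 0 rose and 2 fell in C24, 4 rose and 1 fell in Kro-0, and 0 rose and 2 fell in Ler-1 (edgeR adjusted p under 0.05), all relative to Col-0. In Bur-0 the 9 events came from 2 genes, the pectin acetylesterases AT5G23870 (higher) and AT4G19410 (lower). Over all events, 8.05% rose and 7.69% fell in Bur-0, 8.37% and 8.29% in C24, 6.61% and 8.33% for Kro-0, and 6.72% and 7.52% for Ler-1. In the polymer list 0 of 14 events rose and 1 fell in Bur-0 and in Kro-0, in both the cellulose synthase-like gene CSLE1 (log2 difference -0.88 in Bur-0 and -0.73 in Kro-0). In C24, 2 events rose and 0 fell, in RRA3 (0.75) and UXS4 (0.61). DESeq2 called 1 event of this list in each of Bur-0, C24 and Kro-0. None was called in Ler-1 by edgeR or DESeq2, with 1 unadjusted p under 0.05. In the growth list 0 of 11 events rose and 3 fell in Bur-0, 2 rose and 2 fell in C24, 3 rose and 2 fell in Kro-0, and 2 rose and 2 fell in Ler-1. Reads of a donor event of GASA4, of the same family as AT5G14920, were lower in Bur-0 (log2 difference -0.92, edgeR adjusted p = 0.0294). They were higher in Ler-1 (0.90, edgeR adjusted p = 0.0298). Whether these GASA4 calls hold under the alternative runs is not given here. The list medians of the log2 difference in event reads lay between -0.38 and 0.43, beside medians of all events between -0.0044 and 0.011.

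The events whose 9 group means were most like those of a member were looked for among common events with at least 10 reads in every library and a range of at least 20 points. The 9 means share libraries, and the correlations are a description. AT5G14920 was among the candidates for AtkdsA1 although it is itself a member, chosen with earlier results of these data known. For the AtkdsA1 274 nt stretch, the closest of 567 genes were AT1G35340 (an acceptor event, Pearson r = 0.991), AT1G17145 (a donor event, 0.991) and AT5G14920 itself (0.989). For the AT5G14920 donor event they were AT1G17145 (0.9979), AT3G20870 (intron retention, 0.9973) and AT1G45150 (an acceptor event, 0.995). In each of these Bur-0 had the lowest mean of the 9 groups; AT1G17145, for example, had a mean PSI of 69.05% in Col-0 x Bur-0, 15.2% in Bur-0 and 97.7% in Col-0. For EXPA1 the event with the widest range is the acceptor event without reads in Bur-0, so its closest genes (DIN10, AT1G35340 and AT3G01930, r = 0.873, 0.871 and 0.851) rest on a PSI with no reads behind it. With the 90 nt stretch in its place, chosen after its values were seen, the closest were Tic32-IVa (an acceptor event, r = 0.989), RBL6 (an acceptor event, 0.963) and AT4G18740 (intron retention, 0.956), each lowest in Col-0.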

How the data were processed

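PolyA RNA of the first leaf was sequenced in 18 libraries, 2 biological replicates for each of 9 groups. The deposited lists give, per event and library, the read counts of 2 forms and the PSI fraction that the authors computed, which equals the second count divided by the sum of both counts and 1. The submitters' processing notes name the build TAIR10, HISAT2 and edgeR 3.0.8 without saying what each did; strand use, multi-mapped reads and the counting of kept stretches are not given in the sources used here. Members and lists were chosen with earlier results of these data known. The text names all events of the 3 loci, some of the list genes called at least once, and the 3 genes most alike in group means. Values are given for events whose group means differ by at least 5 points or that are called. For some of these events they cover part of the groups, or are counts without PSI.

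From the deposited counts, both forms of all common events were fitted with edgeR 4.0.16 (quasi-likelihood, R 4.3.3), with library terms and form-by-group terms, over 10 libraries for accessions against Col-0 and 18 for hybrids against the mid-parent; events needed 10 reads in each compared library. Event reads (both forms added) were fitted with TMM scaling and edgeR's filter on low counts. P-values were adjusted by Benjamini-Hochberg over all events at 0.05. Alternatives were DESeq2 1.42.0, limma 3.58.1 on PSI, minima of 20 reads and 1 read, no filter, a replicate block and leaving out each library. The fits were tested on simulated data. Replicates of a group differed by more than sampling noise, and all were kept. Sequences and annotation came from RefSeq TAIR10.1 (pysam 0.24.0), and figures from matplotlib 3.10.9.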

Additional observations from a re-analysis of the deposited data

Results flagged for a closer look

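For the AtkdsA1 274 nt stretch, the libraries of 2 accessions lay on opposite sides of those of Col-0. The PSI difference from Col-0 was -79.7 points in Bur-0, where both libraries lay below both Col-0 libraries, and 6.37 points in C24, where both lay above. The C24 difference did not pass the test over all events and was 2.86 points without Col-0 replicate 1 and 9.88 without Col-0 replicate 2. The difference between these 2 differences was not tested, and both use the same Col-0 libraries.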

How the results depend on the processing

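Counts of calls over all events were recomputed with 1 library left out. For PSI against Col-0 they ranged from 205 to 328 in Bur-0 (458 with all libraries), 130 to 177 in C24 (301), 153 to 196 in Kro-0 (266) and 169 to 225 in Ler-1 (359). Against the mid-parent they ranged from 0 to 1 in Col-0 x Bur-0 (5), were 3 in Col-0 x C24 (3), and ranged from 2 to 6 in Col-0 x Kro-0 (4) and 2 to 4 in Col-0 x Ler-1 (7). For event reads they ranged from 375 to 738 in Bur-0 (839), 489 to 713 in C24 (888), 455 to 612 in Kro-0 (796) and 399 to 669 in Ler-1 (759). DESeq2 called 174 PSI events in Kro-0, 221 in Ler-1, 10 in Col-0 x Bur-0, 6 in Col-0 x C24 and 8 in Col-0 x Kro-0. Limma on PSI called 218 in Ler-1, 13 in Col-0 x Bur-0, 13 in Col-0 x C24, 15 in Col-0 x Kro-0 and 4 in Col-0 x Ler-1, and a minimum of 1 read 6 in Col-0 x C24. The cause of these shifts was not tested. The difference of Col-0 x Bur-0 from the mid-parent for the EXPA1 90 nt stretch, 0.0037 points, ranged from -0.2536 to 0.261 with 1 library left out; it was negative without replicate 2 of the hybrid (-0.0009275), replicate 1 of Bur-0 (-0.003895) and replicate 2 of Col-0 (-0.2536). The log2 difference of EXPA1 event reads in Bur-0, 0.13, ranged from -0.578 to 0.5963, negative without replicate 2 of Bur-0 (-0.578) or replicate 1 of Col-0 (-0.1415).

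The labels tie the replicate numbers to no shared batch or day, and the numbers were not taken as pairs: same-numbered deviations correlated at -0.089 to 0.14 for PSI and -0.21 to 0.44 for event reads, over 0.1 in 5 and 18 of 36 pairs of groups. Event reads of the EXPA1 107 nt and 90 nt stretches were higher in the library numbered 2 in all 9 groups, which the block takes up. Those of the 74 nt stretch were not higher there in C24 (194.3 CPM in replicate 1 and 185.4 in replicate 2). With the replicate block, PSI calls numbered 468 in Bur-0, 301 in C24 leaves, 273 in Kro-0 leaves, 352 in Ler-1, 7 in Col-0 x Bur-0, 6 in Col-0 x C24, 10 in Col-0 x Kro-0 and 8 in Col-0 x Ler-1, and event-read calls 833, 878, 766 and 754 in the 4 accessions. With the block, event reads of the EXPA1 107 nt stretch passed in Kro-0 (log2 difference 0.73, edgeR adjusted p = 0.0278). Those of the EXPA1 90 nt stretch passed with the block in Kro-0 and in C24. Depth limits the acceptor events, with 46 to 167 AtkdsA1 junction reads in a group and 0 to 12 EXPA1 reads in Bur-0, C24, Kro-0 and Ler-1.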
